A study of Mus musculus with 8 samples.

Results

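Ciita and 6 genes of the MHC class II pathway (Cd74, H2-Aa, H2-Ab1, H2-Eb1, H2-DMa and H2-DMb1) were followed in MC38 cells, a line grown from a mouse colon adenocarcinoma. They were taken by gene name, 7 of the 23998 genes and unnamed loci with values in either of 2 deposited tables. All 7 had values in the table of IFNγ-treated samples, and 4 of the 7 in that of untreated samples, so untreated levels of H2-Aa, H2-Ab1 and H2-Eb1 were not analysed here. RNA was sequenced from 8 samples in 4 groups of 2: untreated control, untreated DENR KO, and both genotypes after IFNγ at 20 ng/ml for 4 h. The labels call the control genotype wild type. Per the study's methods, control and DENR KO cells were stable lines infected with lentiviruses for Cas9 and sgRNAs. The study calls its IFNγ-treated samples independent, while the sgRNA behind each DENR KO sample is not given in the sources used here, and p-values measure only the spread between these samples. DENR is a factor that helps ribosomes start again after a short upstream reading frame, and the study sequenced these cells to find which signaling pathways change without it.

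MHC class II molecules are pairs of an alpha and a beta chain that show peptides from engulfed proteins to helper T cells. Their genes share promoter elements called the X and Y boxes, on which RFX, CREB and NF-Y assemble, and transcription starts when the co-activator CIITA joins these factors. Dendritic cells, macrophages and B cells make CIITA on their own, while many other cells make it only after IFNγ, through factors that include IRF1. Cd74 encodes the invariant chain that guards the groove of new class II molecules, and H2-DM, a pair of H2-DMa and H2-DMb1 chains, exchanges its remnant for peptide.

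RefSeq promoter windows of GRCm38.p6, from 250 bases before to 50 after a start site, were at hand for 4 members: H2-Aa, H2-Eb1, H2-DMb1 and H2-DMa. H2-Aa, H2-Eb1 and H2-DMb1 are shown because their windows held an X-box core followed by a Y box, with starts 25 to 50 bases apart. H2-Aa and H2-Eb1 stayed at 11 reads or fewer in every IFNγ-treated sample. H2-DMb1 had the highest level per length in every group. Letters in capitals mark the X-box core GNAAC and the Y box TGATTGG, and each stretch is written 5′ to 3′ on the strand of its gene. H2-Aa is from chr17:34287860-34287919 on the minus strand, H2-Eb1 from chr17:34305761-34305819 on the plus strand, and H2-DMb1 from chr17:34153105-34153134 on the plus strand.
H2-Aa: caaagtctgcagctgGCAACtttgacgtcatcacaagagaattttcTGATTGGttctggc
H2-Eb1: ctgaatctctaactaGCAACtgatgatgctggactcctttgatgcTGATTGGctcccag
H2-DMb1: tgatgctaggctgattcactcagTGATTGG
In H2-Aa the X-box core GCAAC began 81 bases and the Y box 50 bases before the RefSeq start site. In H2-Eb1 the same letters began 91 and 61 bases before it. H2-DMb1 had GTAAC and TGATTGG at 94 and 63 bases, and only its Y box is printed, because the deposited coordinates start the first exon 119 bases earlier, which puts this stretch inside it. The core and the Y box therefore began 31, 30 and 31 bases apart in the 3 genes, within the 25 to 50 bases required. The transcripts of these genes differed widely in level. Neither H2-DMa window held TGATTGG on either strand. Their start sites lie 9664 bases or more before the deposited start of H2-DMa, for which no window was at hand. The start site of 1 window is also that of a protein-coding H2-DMa transcript in the GENCODE annotation. Of all 32851 windows, 7.82% held TGATTGG on either strand, and 0.712% held GNAAC followed by TGATTGG on the same strand with starts 25 to 50 bases apart. These letters were searched after the sequences and the expression values had been seen.

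The samples held from 17369020 to 18403790 reads on genes, and their 10 most abundant genes took 4.10% to 4.45% of them. The normalized counts used below are reads scaled by 1 factor per sample (0.976 to 1.02), so that 1 count is close to 1 read. Denr, the targeted gene, ran from 1297 to 1448 normalized counts in the 4 control samples and from 916 to 957 in the 4 DENR KO samples, so its mRNA was lowered and still present. Of 7 epithelial markers, 5 had values in at least 1 table, and together they summed to 12.7 to 24.6 normalized counts in a sample. Krt8 ran from 0.981 to 8.16, and Cdh1, the highest of them, had group means of 8.65 to 12.8. Thus these markers were low in cells labelled as a colon line. In this and the other marker sums, a gene without values in a table counted as 0. The 4 fibroblast and endothelial markers summed to 2074 to 2638 normalized counts, of which Pdgfra gave 1706 to 2056 and Col1a1 315 to 550.3. The endothelial markers of this list were low, with group means of 2.45 to 12.2 for Pecam1 and 9.33 to 17.2 for Cdh5. Of the cells that make class II on their own, the B cell marker Cd79a had 0 to 3.91. Among the macrophage and dendritic cell markers, 8 of 11 had values and summed to 288 to 386, of which Zbtb46 gave 257 to 366, while Ptprc, carried by all leukocytes, had 0 to 3.06 in the untreated samples.

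Ciita went from next to nothing to a clear signal within 4 h of IFNγ, and reached a lower level in DENR KO cells. The gene lies on chromosome 16 (chr16:10480059-10528418, plus strand). Untreated control samples had 2.01 and 1.02 normalized counts of Ciita, and both untreated DENR KO samples had 0. After IFNγ, the controls had 479.5 and 536 normalized counts of Ciita, and the DENR KO samples 334 and 272. Every treated sample was above every untreated one, and both DENR KO samples were below both controls. Mean Ciita with IFNγ was 508 ± 39.7 (SD, n = 2) in control and 303 ± 43.9 (SD, n = 2) in DENR KO cells, which is 40.4% less. The log2 difference was -0.75 with a standard error of 0.11 and a 95% confidence interval from -0.98 to -0.52 (adjusted p = 0.000147 from limma with Benjamini-Hochberg adjustment), on the log2(normalized count + 1) scale used for all differences below. Dropping any 1 of the 4 samples kept it between -0.90 and -0.60, the highest adjusted p being 0.00038. Bulk RNA cannot tell fewer cells with Ciita from less Ciita mRNA per cell.

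Untreated Ciita was at the limit of the depth. The 2 control samples held 3 reads in all, and the 2 DENR KO samples 0, which allows up to 3 reads or 0.0815 RPM (reads per 1000000 reads on genes). No test of genotype is reported for untreated Ciita, because the mean was under 10 normalized counts. When the DENR KO effects on Ciita in treated and untreated samples were compared, they differed by 0.55 on the log2 scale (limma, adjusted p = 0.995), which turned to -0.36 when 5 was added to each value in place of 1, so its sign could not be measured at this depth. In the GENCODE annotation Ciita has 8 transcripts with 8 start sites, and a total per gene does not say which start was in use. The 3′ end of Ciita overlaps Dexi on the opposite strand, and how the authors treated strand is not given in the sources used here. Dexi averaged 419 normalized counts in the untreated samples, where Ciita had 0 to 2.01, and its own DENR KO difference with IFNγ was -0.05 (adjusted p = 0.889 from limma).

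**Figure D1:**
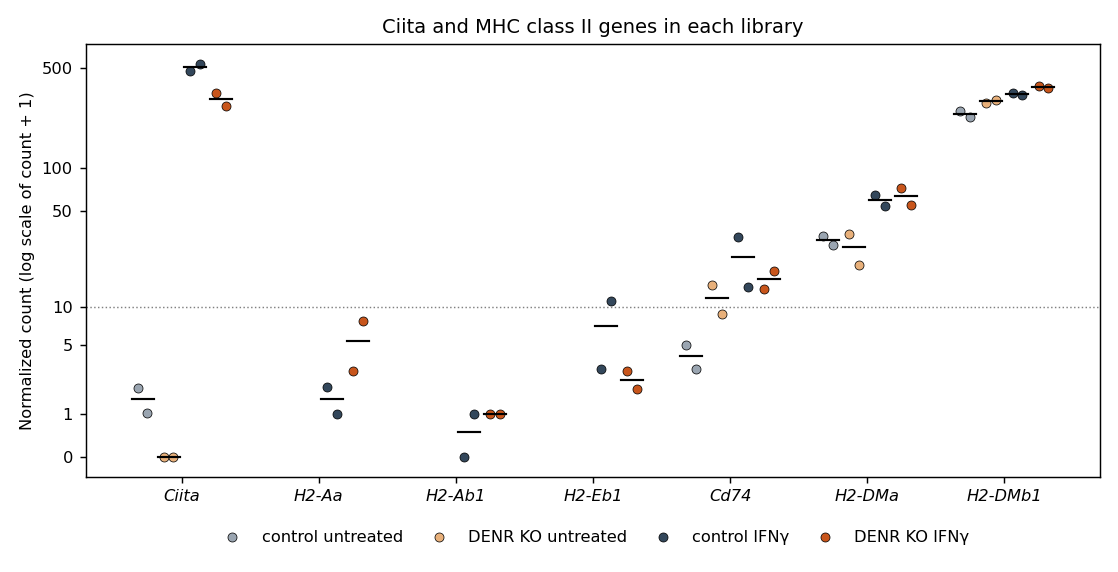
Normalized counts of the 7 genes in each library, on a log scale of the count plus 1. Points are samples, bars are means of 2 samples, and the dotted line marks 10 counts; H2-Aa, H2-Ab1 and H2-Eb1 are shown with IFNγ only. Ciita moved from 0 to 2.01 untreated to 272 to 536 with IFNγ, H2-Aa and H2-Ab1 stayed below the line, and H2-DMb1 stayed between 226.6 and 375.

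Of the genes of the classical alpha and beta chains, H2-Ab1 and H2-Aa stayed near zero after 4 h, and H2-Eb1 reached 11.1 normalized counts in 1 sample. H2-Ab1, the beta chain of I-A (chr17:34263209-34269418, plus strand), had 0 and 1.01 normalized counts in control samples given IFNγ, against 0.984 and 0.977 in DENR KO samples, so no sample held more than 1 read. H2-Aa, the alpha chain of I-A (chr17:34282744-34287827, minus strand), had 2.05 and 1.01 in control and 2.95 and 7.81 in DENR KO samples. These 2 genes were under 10 normalized counts in every treated sample, the limit taken here as near zero.

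H2-Eb1, the beta chain of I-E (chr17:34305877-34316199, plus strand), had 3.07 and 11.1 normalized counts in treated controls, against 2.95 and 1.95 in treated DENR KO samples. It missed the near-zero limit through control replicate 2 alone. Summed over both samples of a group, H2-Aa had 3 reads in control (95% Poisson interval 0.619 to 8.77) and 11 in DENR KO cells (5.49 to 19.7), and H2-Eb1 had 14 (7.65 to 23.5) and 5 (1.62 to 11.7). The larger sum was thus in DENR KO cells for H2-Aa and in control cells for H2-Eb1, at a depth of a few reads. None of the 3 chains passed the filter of a mean of at least 10, so no test of them is reported. In the same 4 samples Ciita had between 278 and 532 reads.

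Cd74 was low throughout, and highest in a single control sample. The gene is on chromosome 18 (chr18:60803848-60812646, plus strand). Untreated control samples had 5.03 and 3.06 normalized counts of Cd74, and untreated DENR KO samples had 14.7 and 8.84, so the untreated groups did not overlap. The same held for 39.9% of the genes tested untreated. With IFNγ, Cd74 had 32.8 and 14.1 in control and 13.8 and 18.6 in DENR KO samples, which overlapped. Control replicate 1 accounted for 32 of the 46 control reads. The log2 difference of DENR KO from control with IFNγ was -0.41 (standard error 0.43, 95% interval -1.29 to 0.47, adjusted p = 0.771 from limma). Without control IFNγ replicate 1 it was 0.17 (adjusted p = 0.946 from limma). The untreated samples alone fell below the filter, so no test of them is reported. In the test of the difference between treatments, which Cd74 entered through its treated samples, the estimate was -1.74 (95% interval -3.24 to -0.24, adjusted p = 0.705 from limma). It rests on 8 untreated control and 24 untreated DENR KO reads and did not pass the threshold, so no direction is read from it.

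H2-DMa and H2-DMb1 were the 2 of 7 members that passed the filter without IFNγ, and with it their group means stood at 1.29 to 2.37 times the untreated level. H2-DMa (chr17:34135182-34139101, plus strand) had 33.2 and 28.6 normalized counts in untreated control and 34.3 and 20.6 in untreated DENR KO samples. With IFNγ it had 64.6 and 54.4 in control and 72.8 and 54.7 in DENR KO samples. All 4 treated samples lay above all 4 untreated ones, and the genotypes overlapped in both treatments. H2-DMb1 (chr17:34153072-34160230, plus strand) had 251 and 226.6 normalized counts in untreated control and 285 and 299.7 in untreated DENR KO samples. With IFNγ, H2-DMb1 had 335 and 323 in control and 375 and 364 in DENR KO samples. In each treatment both DENR KO samples lay above both controls for H2-DMb1, by 22.7% of the control mean untreated and by 12.3% with IFNγ, and neither difference passed the test.

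For H2-DMb1 the log2 difference of DENR KO from control was 0.29 untreated (standard error 0.12, adjusted p = 0.452 from limma) and 0.17 with IFNγ (standard error 0.11, adjusted p = 0.553 from limma). The 95% intervals ran from 0.04 to 0.55 and from -0.05 to 0.39. For H2-DMa the differences were -0.20 untreated (interval -0.91 to 0.51, adjusted p = 0.909 from limma) and 0.09 with IFNγ (interval -0.40 to 0.58, adjusted p = 0.932 from limma). Both H2-DMa differences changed sign when 1 library was left out. Untreated, it was 0.15 without DENR KO replicate 2. With IFNγ it was -0.03 without control replicate 2 and -0.11 without DENR KO replicate 1. H2-DMb1 shares 22.7% of its 50-base stretches of transcript sequence with H2-DMb2, so the authors' counting may have dropped reads from those stretches. H2-DMb2 itself had no values in either table.

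Over the members, 4 of 7 could be tested with IFNγ, where Ciita was the 1 gene lower in DENR KO cells and none was higher, against 2.25% of all 13928 genes tested that were lower and 1.8% that were higher. Of those 4, Ciita and H2-DMb1 had groups that did not overlap, as did 42% of all genes tested with 2 samples against 2. Untreated, 2 of the 7 could be tested and 0 were called by limma, edgeR or DESeq2, where limma called 0.579% of 13998 genes. H2-DMb1 was the 1 member with an unadjusted limma p under 0.05 there, at 0.0256, and its groups did not overlap, as for 39.9% of genes. In the test of the difference between treatments, 0 of the 4 members tested were called by limma, edgeR or DESeq2. By limma 0.45% of 13998 genes were called, and Cd74 was the 1 member with an unadjusted p under 0.05. Ciita and Cd74 entered this test through their treated samples and had few untreated reads. For these genes the missing call is not read as a lack of difference. Median log2 differences over the members tested were -0.16 with IFNγ and 0.05 untreated, against -0.00036 and 0.0019 over all genes tested. A member that passed the filter did so through its level, so these counts do not cover the 3 classical chains.

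**Figure D2:**
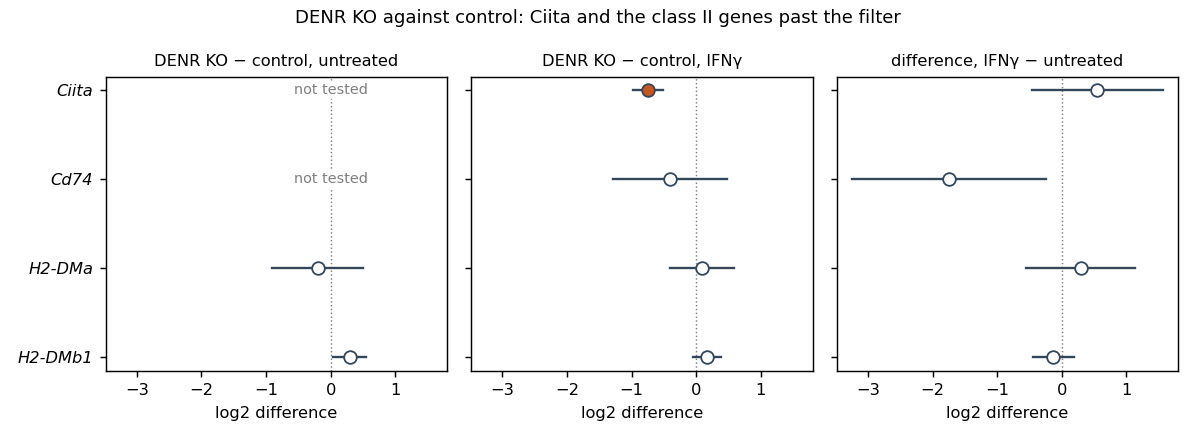
Log2 difference of DENR KO from control in untreated samples (left), with IFNγ (middle), and the difference between these differences (right), for the members that passed the filter. Points are limma estimates, lines are 95% confidence intervals, and a filled point has an adjusted p under 0.05; Ciita with IFNγ at -0.75 is the only filled point.

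Levels across the treatments are given as RPM on genes, with no test, because the 2 tables were normalized separately. Ciita went from 0.0843 RPM in untreated to 28.5 RPM in IFNγ-treated control cells, a ratio of 338 with a 95% counting interval of 115 to 1636 that rests on the 3 untreated reads. In DENR KO cells Ciita reached 17.1 RPM, 210 times the floor of 3 reads over the group. Cd74 followed with a ratio of 5.85 (2.72 to 14.3) in control and 1.40 (0.804 to 2.48) in DENR KO cells, and the control ratio was 3.51 without control IFNγ replicate 1 and 8.19 without control IFNγ replicate 2. H2-DMa was 1.94 times its untreated level in control (1.41 to 2.69) and 2.37 times in DENR KO cells (1.72 to 3.30). For H2-DMb1 the ratios were 1.39 (1.23 to 1.57) and 1.29 (1.16 to 1.44). The intervals cover counting error only. Apart from Cd74 in DENR KO cells, the counting intervals of these genes lay above 1.

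**Figure D3:**
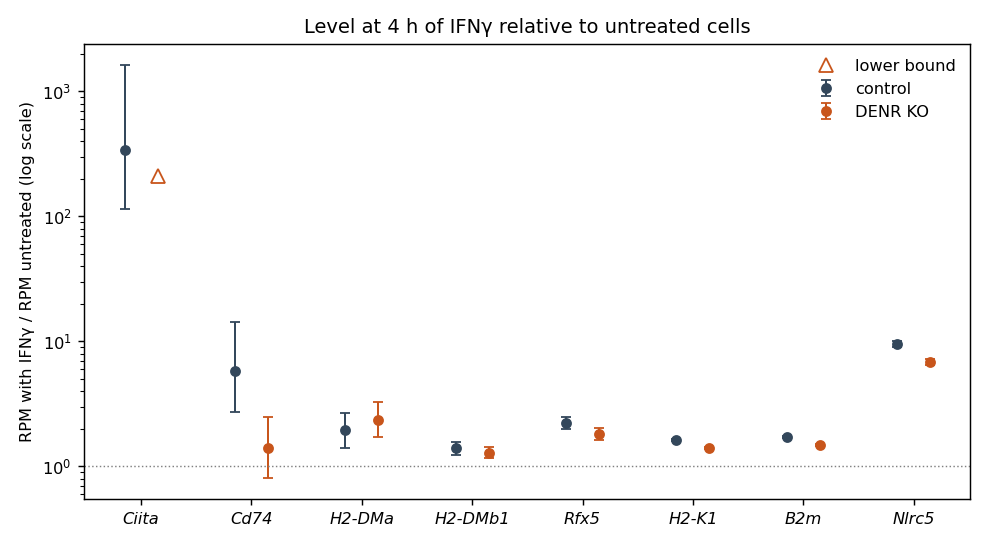
Ratio of the level with IFNγ to the untreated level in RPM, on a log axis, for the 4 members with values in both tables and for Rfx5, H2-K1, B2m and Nlrc5. Circles are ratios of group means of 2 samples with 95% counting intervals, the triangle is a lower bound, and the dotted line marks no change; Ciita stands at 338 in control and at least 210 in DENR KO cells, and Nlrc5 at 9.46 and 6.87.

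Per length, as RPM per kilobase of gene (RPKM), the order of levels changed with treatment. H2-DMb1 was highest in all 4 groups, with 8.94 ± 0.585 in untreated control, 10.9 ± 0.359 in untreated DENR KO, 12.4 ± 0.345 in treated control and 14.1 ± 0.266 in treated DENR KO cells (SD, n = 2 each). Ciita was last of the 4 genes compared in untreated cells, at 0.00884 ± 0.00404 RPKM in control (SD, n = 2). In treated control cells it moved to the place after H2-DMb1, at 2.99 ± 0.227, above H2-DMa at 2.03 ± 0.251 (SD, n = 2 each), and the ranges of these neighbours did not overlap. In treated DENR KO cells H2-DMa came before Ciita, at 2.20 ± 0.439 and 1.79 ± 0.258 RPKM (SD, n = 2 each), and here their ranges overlapped. Cd74 came next in both, at 0.933 ± 0.528 and 0.649 ± 0.137, ahead of the classical chains. In treated control cells these ran H2-Eb1 (0.335 ± 0.267), H2-Aa (0.0458 ± 0.0222) and H2-Ab1 (0.0172 ± 0.0244), the last 2 overlapping, and in DENR KO cells H2-Aa and H2-Eb1 overlapped as well.

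The genes around Ciita were read from lists that were chosen with earlier results of these data known. Of 10 genes reported here that carry or brake the IFNγ signal to Ciita, all were tested with IFNγ. By limma 5 were lower in DENR KO cells, 0 were higher, and the median log2 difference was -0.25. Over all 13928 genes tested, 2.25% were lower and 1.8% higher. Irf8, an interferon regulatory factor, fell by 0.75 (standard error 0.080), from 1265 ± 107 to 749 ± 24.1 normalized counts (SD, n = 2 each). Socs1, which inhibits JAK kinases and is itself induced by them, fell by 0.75 (standard error 0.063). Thus Irf8, Socs1 and Ciita had log2 differences of nearly the same size, -0.75 each. Irf1 (-0.52), which binds the IFNγ-responsive Ciita promoter, Irf2 (-0.32) and Jak2 (-0.30) were lower by less, and all 5 had an adjusted p of at most 0.00889 from limma. Without control IFNγ replicate 2, Jak2 no longer passed (adjusted p = 0.0629 from limma), and DESeq2 gave Irf2 0.0501. The receptor chains Ifngr1 and Ifngr2, with Jak1, Usf1 and Prdm1, did not pass. By edgeR 5 were lower and by DESeq2 4. Untreated, 9 of these 10 genes were tested and 0 were called by limma, edgeR or DESeq2, with 0 at an unadjusted limma p under 0.05.

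The factors that hold CIITA at the promoter were transcribed in all samples. Rfx5, Rfxap, Rfxank, Nfya, Nfyb, Nfyc and Creb1 were all tested, and 0 of these 7 passed in either treatment by limma, edgeR or DESeq2, although Rfx5 (-0.21, unadjusted p = 0.0343) and Nfyb (-0.23, unadjusted p = 0.00884) had an unadjusted p under 0.05 with IFNγ. Of 14 entries for peptide processing and class II turnover, which include alternative gene symbols, 8 were tested and 0 passed in either treatment by limma, edgeR or DESeq2, with 1 at an unadjusted limma p under 0.05 with IFNγ and 3 untreated. The highest of them, the lysosomal protease gene Ctsh, had 0.38 with IFNγ (adjusted p = 0.0591 from limma). The 6 other class II chain genes on the list were not analysed here.

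Class I genes, which use the related co-activator NLRC5 on similar promoter elements, were at higher levels per length than any class II member after IFNγ, where the lowest of the 7 was Nlrc5 at 41.7 RPKM in control and 33.5 RPKM in DENR KO cells. Untreated, Nlrc5 (4.41 and 4.88 RPKM) and Tap1 (6.11 and 5.84 RPKM) were below H2-DMb1. With IFNγ, 5 of 7 class I pathway genes were lower in DENR KO cells, 0 were higher, and the median log2 difference was -0.27. Among all 13928 genes tested with IFNγ, 2.25% were lower and 1.8% higher. Nlrc5 had 6406 and 6216 normalized counts in treated control and 4946 and 5118 in treated DENR KO samples, against 627 and 718 (control) and 770.1 and 727 (DENR KO) untreated. Its log2 difference with IFNγ was -0.33 (standard error 0.055, adjusted p = 0.000465 from limma). The peptide transporter gene Tap1 had -0.51, B2m -0.31, the heavy chain gene H2-K1 -0.25 and the loading factor gene Tapbp -0.19, with an adjusted p of at most 0.0267 from limma. H2-K1 lost the call without control IFNγ replicate 1 (adjusted p = 0.157 from limma) or DENR KO IFNγ replicate 2 (0.0651). Tapbp lost it without either control IFNγ replicate (0.137 and 0.058) or without DENR KO IFNγ replicate 2 (0.327). At 0.75 against 0.33 below control, Ciita and Nlrc5 were not tested against each other. Untreated, 0 of these 7 genes were called by limma, edgeR or DESeq2, and Tapbp was the 1 gene with an unadjusted limma p under 0.05.

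**Figure D4:**
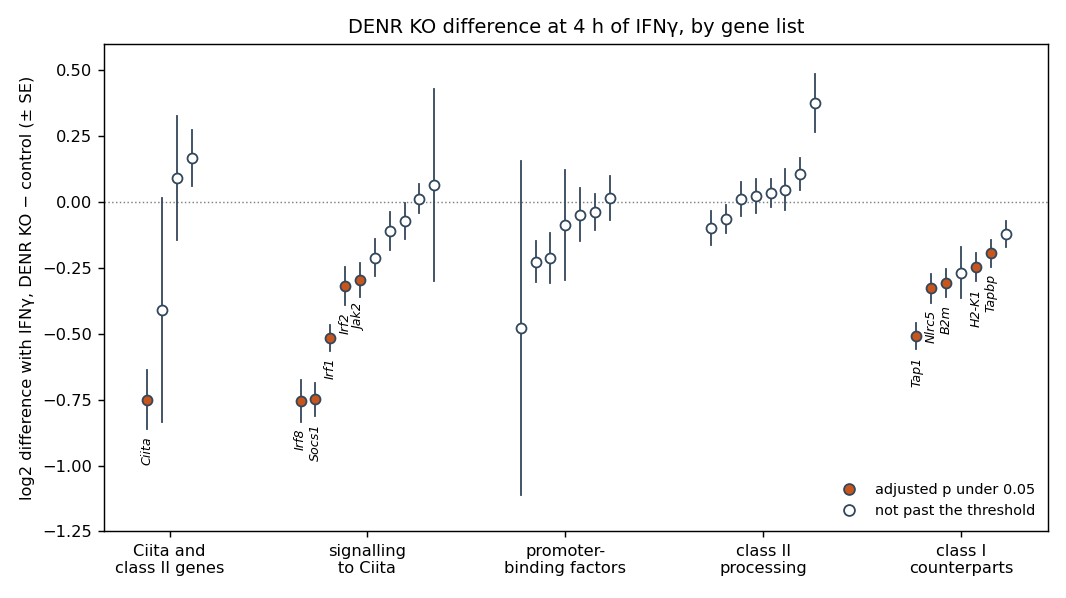
Log2 difference of DENR KO from control with IFNγ for every tested gene of the 5 lists, with the standard error as a line. Filled points have an adjusted p under 0.05 from limma and carry the gene's name; 1 of 4 members, 5 of 10 signaling genes, 0 of 7 promoter-binding factors, 0 of 8 processing genes and 5 of 7 class I genes are filled, all below zero.

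The 5 genes whose centred log2 profile over the 8 samples lay nearest to that of Ciita, by Euclidean distance among 13394 genes, were Gbp2 (distance 1.21, Pearson r = 0.995), Gbp3 (1.39, 0.994), Gbp4 (1.75, 0.990), Irgm2 (1.96, 0.993) and Igtp (2.05, 0.987). These encode guanylate-binding proteins and immunity-related GTPases, classes of proteins known to be induced by IFNγ. All r values here describe 8 samples that share 1 large step between treatments. The choice depended on how low values were handled, since adding 5 in place of 1 left 0 of the 5 and ranking by r alone left 1. On the same measure H2-DMa was 9.87 (r = 0.924) and H2-DMb1 10.9 (r = 0.774) away from Ciita. The 5 genes nearest to H2-DMb1 were Pdgfb (distance 0.108), Them6, Itpripl2, 6530402F18Rik and Vegfc (0.236), and adding 5 left the same 5 while ranking by r alone left 1. No gene could be on both lists, because Ciita and H2-DMb1 lie 10.9 apart and the lists reach only 2.05 and 0.236 from them.

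**Figure D5:**
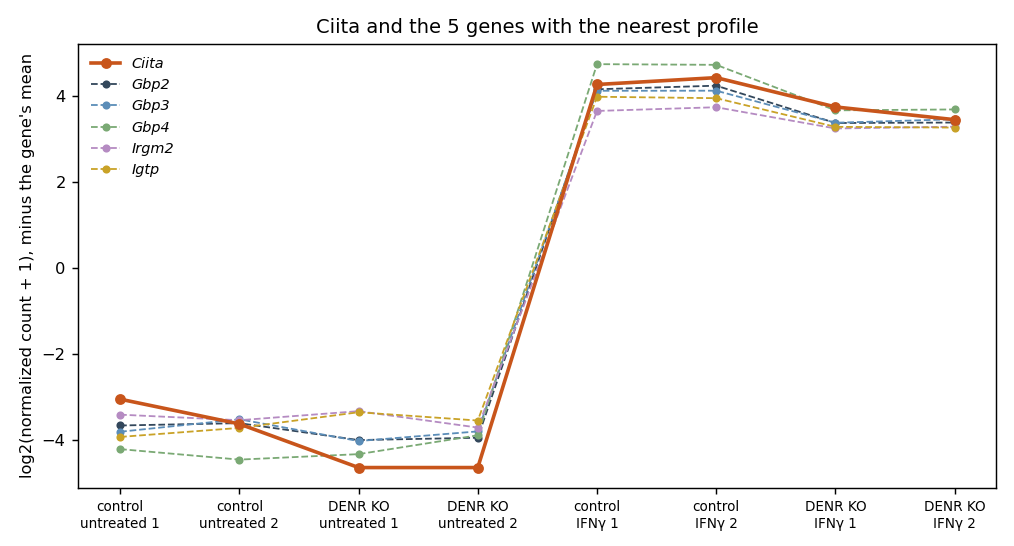
Log2(normalized count + 1) minus the gene's mean over 8 samples, for Ciita (thick line) and its 5 nearest genes, with samples on the horizontal axis; lines join the samples of a gene and carry no time order. All 6 genes are higher in IFNγ-treated than in untreated samples and lower in the 2 treated DENR KO samples than in the 2 treated controls, while Ciita alone sits at 0 counts in untreated DENR KO samples.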

How the data were processed

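Per the labels, the authors used HISAT2 2.0.5, StringTie 1.3.3b, featureCounts 1.5.0-p3 and DESeq2 1.20.0. The values the authors deposited are a signal per gene and sample, read counts divided by 1 size factor per sample, in 1 table per treatment, each normalized separately. Columns with the authors' own fold changes and p-values were not used. The labels name mm9, but of 23583 gene IDs found in GENCODE M21 (GRCm38), 96.8% had the same start, so coordinates are GRCm38. Dividing by the value of 1 read gave whole reads for 100% of values (tolerance 0.01). Genes with a mean of at least 10 were fitted with limma 3.58.1 (R 4.3.3, trend and robust) on log2(value + 1), with Benjamini-Hochberg adjustment over all genes and a call at adjusted p under 0.05. edgeR 4.0.16 and DESeq2 1.42.0 on the recovered reads, other pseudocounts, filters and scalings, a fold threshold, a replicate block and leaving out each sample were alternatives. In simulated counts with 200 changed genes, limma found 89.8% of tested genes changed by 1 on the log2 scale in the IFNγ comparison, 87.8% in the untreated one and 65.0% in the difference between treatments (DESeq2: 73%, 72% and 52.6%). The simulation gave every gene the same spread beyond counting error, which was set and not taken from these data. These shares therefore do not apply to noisier genes such as Cd74 and H2-DMa. Promoters are from RefSeq (GRCm38.p6). Named genes were every member, listed genes that passed a test, Nlrc5, Denr and the nearest profiles. Dexi, H2-DMb2, single marker genes and listed genes with an unadjusted p under 0.05 were named after their values were seen. The members and lists were chosen with earlier results of these data known. Results for 1 of the listed genes are not reported here.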

Additional observations from a re-analysis of the deposited data

Results flagged for a closer look

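Among the listed genes, 6 had a DENR KO effect that differed between IFNγ-treated and untreated samples in limma's test of the difference itself. None of the 4 members tested was called there. For Ciita and Cd74 that test rests on few untreated reads, so the missing call is not read as a lack of difference. Of all 13998 genes in that test, 0.45% were called. The difference of the log2 effects, IFNγ minus untreated, was -2.45 for Irf8 (adjusted p = 3.49e-05), -0.75 for Socs1 (adjusted p = 0.000436) and -0.58 for Irf1 (adjusted p = 0.00018). It was -0.48 for Nlrc5 (adjusted p = 0.0155), -0.45 for Tap1 (adjusted p = 0.0158) and -0.35 for Tapbp (adjusted p = 0.0286). Irf8 had 2.04 to 10.8 normalized counts in the untreated samples, under the filter of the untreated test. Its value therefore rests on 5 untreated control and 21 untreated DENR KO reads, moved to -1.78 when 5 was added in place of 1, and had an adjusted p of 0.0508 with DESeq2. Irf1 and Socs1 passed whichever of the 8 samples was dropped. Nlrc5 did not pass without either treated control replicate, treated DENR KO replicate 1, or replicate 1 of either untreated group, with an adjusted p of up to 0.161. Tap1 was lost without any 1 of the 4 treated samples or untreated DENR KO replicate 2, at up to 0.196. Tapbp was lost without either treated control replicate, treated DENR KO replicate 2, untreated control replicate 2 or either untreated DENR KO replicate, at up to 0.275.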

How the results depend on the processing

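Ciita with IFNγ stayed lower and past the threshold under all alternatives run. For the members past the filter of a mean of at least 10, no call changed under any. Alternatives without this filter also fitted members below it, and those values are not reported. Of 151 alternative values of the members' DENR KO effects, 145 kept direction and call. The 6 that turned were all uncalled: with IFNγ, Cd74 at 0.17 without control replicate 1 and H2-DMa at -0.03 and -0.11 without control replicate 2 or DENR KO replicate 1; untreated, H2-DMa at 0.15 without DENR KO replicate 2; and for the difference between treatments, H2-DMa at -0.062 without untreated DENR KO replicate 2 and Ciita at -0.36 with pseudocount 5. The cause of these turns was not tested. All 42 alternative IFNγ ratios moved by less than the spread between replicates. With 2 replicates per group, the ratios that left out 1 sample could hardly do otherwise, so no stability is read from them. Cd74 in control, for example, went from 5.85 to 3.51 or 8.19. Dropping 1 sample at a time gave, with IFNγ, -0.99 to 0.17 for Cd74 (the lowest without control replicate 2) and -0.11 to 0.29 for H2-DMa. H2-DMa gave -0.56 to 0.15 untreated and -0.062 to 0.65 for the difference between treatments.

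Counts over all genes moved more. With IFNγ, 314 lower and 251 higher genes became 143 and 72 with a log2 fold change beyond 0.5 required, and 122 higher with DESeq2. Untreated, 21 and 60 became 12 and 18 with that fold, and 13 and 37 with DESeq2. With a replicate block, the counts were 729 lower and 726 higher with IFNγ, 89 and 168 untreated, and 13 higher for the difference between treatments (3 without it). The replicate block changed no member's call. Over all genes compared, same-numbered samples deviated together little or not at all (correlations of replicate differences -0.012 to 0.096). The highest correlation was between control and DENR KO samples with IFNγ. Single genes could deviate together more, since Nfya was higher in replicate 1 than in replicate 2 in all 4 groups. Untreated, Nfya had 387 and 159 normalized counts in control and 222 and 133 in DENR KO samples. With IFNγ it had 245 and 112 in control and 156 and 89.9 in DENR KO samples. Whether the numbers pair the samples was therefore not settled. Dropping 1 sample at a time gave 281 to 307 lower and 146 to 341 higher with IFNγ, 15 to 41 and 20 to 61 untreated, and 35 to 81 and 1 to 12 for the difference. The fewest higher genes were left without DENR KO IFNγ replicate 1 (146), without control untreated replicate 2 (20) and without DENR KO IFNγ replicate 2 (1). Scalings moved the median of all genes by under 0.03.

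For genes with a mean under 10 normalized counts in a table, no test of genotype in that table is reported. They include the classical chains with IFNγ and Cd74, Ciita and Irf8 untreated. Differences between treatments of Cd74, Ciita and Irf8 rest on the same few untreated reads.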
